A study of Caenorhabditis elegans with 2 samples.

Results

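Small nuclear RNA (snRNA) genes were described for binding of GMEB-2, which is related to the glucocorticoid modulatory element binding proteins of vertebrates. Those proteins bind DNA through a SAND domain. The members were all 129 genes of biotype snRNA among the 46890 nuclear genes of the Ensembl annotation of Caenorhabditis elegans, chosen by biotype and not by signal, although with earlier results of these data known. Chromatin immunoprecipitation followed by sequencing (ChIP-seq) had been done with an anti-GFP antibody in 2 biological replicates of 1 group. Both were whole late embryos, pooled male and female, 5 h after synchronization by egg bleaching. The strain, OP622, carries the mutation unc-119(tm4063) on chromosome III and the integrated transgene wgIs622, which makes GMEB-2 tagged with GFP-FLAG at its C terminus. All values thus concern the tagged protein from 1 transgenic line and an average over all cells of the embryo. There was no second condition, so nothing was tested, and every count is a description beside its background.

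The RNAs encoded by these genes are short, are not translated and work inside protein particles. The U1, U2, U4, U5 and U6 snRNAs form the spliceosome, which removes introns. The SL1 and SL2 RNAs of nematodes donate their first bases, the spliced leader, to the start of other transcripts in trans-splicing, and SL2 serves mainly the downstream genes of operons. SmY RNAs are small nematode RNAs thought to act with the spliced leader particles. In animals most snRNA genes are read by RNA polymerase II and U6 genes by RNA polymerase III. Both start from an upstream element bound by the snRNA activating complex, and U6 promoters also have a TATA box.

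Symbols in the RefSeq annotation gave 12 sls-1 genes for SL1, 18 sls-2 genes for SL2 and 10 smy genes for SmY, and left 89 genes unclassed. To describe the latter, the bodies were joined into families by edit distance, and each family was named after a textbook word that most of its genes hold. The word was in 12 of 13 genes of the U1 family, 18 of 19 of the U2 family, all 5 of the U4 family, 11 of 12 of the U5 family and 22 of 24 of the U6 family, and the U2 word was also in 1 gene outside the families. These families were added after the files were seen, and a name such as "U1 family" stands for the shared sequence and not for an annotated class. The U1 family had 13 genes, the U2 family 19, the U4 family 5, the U5 family 12 and the U6 family 24. The SL2 family gained 1 unclassed gene, ZK1251.14, and had 19. The other 15 genes fell into none of these, among them mir-1831, which lies inside sup-39 and is of biotype snRNA in this annotation. The following bodies, from 6 of the families, show what they look like. They come from the RefSeq assembly WBcel235, which is build ce11. Capitals mark the 22 bases of the spliced leader in sls-2.2 (chrII:5543598-5543707, + strand) and sls-1.10 (chrV:17120694-17120791, - strand). No part is marked in smy-10 (chrIV:13601636-13601725, + strand). In the others they mark the family's word: ACTTACCTG, which pairs with the 5′ splice site, in sup-6 (chrII:12944803-12944967, - strand), and TAGTATC, the branch point pairing part, in F11A5.14 (chrV:16225701-16225887, - strand). They mark AGCTTTGCG in C52E4.8 (chrV:11980118-11980261, + strand).
sls-2.2: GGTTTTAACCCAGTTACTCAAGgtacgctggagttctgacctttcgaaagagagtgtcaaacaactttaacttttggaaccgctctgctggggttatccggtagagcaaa
sls-1.10: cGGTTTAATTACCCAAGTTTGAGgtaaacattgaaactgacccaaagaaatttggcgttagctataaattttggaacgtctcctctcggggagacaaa
smy-10: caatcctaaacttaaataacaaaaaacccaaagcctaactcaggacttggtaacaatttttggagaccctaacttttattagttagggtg
sup-6: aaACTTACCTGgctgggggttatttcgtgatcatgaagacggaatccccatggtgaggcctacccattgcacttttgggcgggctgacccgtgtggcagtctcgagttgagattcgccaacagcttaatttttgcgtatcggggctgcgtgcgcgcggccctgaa
F11A5.14: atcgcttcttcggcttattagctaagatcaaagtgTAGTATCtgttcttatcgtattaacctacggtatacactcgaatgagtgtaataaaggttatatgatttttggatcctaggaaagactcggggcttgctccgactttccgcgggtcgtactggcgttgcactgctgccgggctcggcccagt
C52E4.8: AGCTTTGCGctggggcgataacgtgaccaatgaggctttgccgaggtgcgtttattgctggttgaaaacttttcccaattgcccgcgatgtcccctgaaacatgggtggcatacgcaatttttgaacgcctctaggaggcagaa

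Upstream sequences are shown for 5 of the 7 genes with the most reproducible peaks, and for R07E5.16, whose RNA body is the same as that of W05B2.8 while its signal was lower. Capitals mark the upstream word GCGGAAC, the TATA box word and, on either strand, the B box word GTTCGANNC. The windows end at the base before the annotated 5′ end and are 85 or 200 bases long. They are W05B2.8 (chrIII:10989594-10989678, + strand), R07E5.16 (chrIII:4414100-4414184, + strand), F54D8.7 (chrIII:5080899-5081098, - strand), sls-2.2 (chrII:5543398-5543597, + strand), sls-2.1 (chrII:5844665-5844864, + strand) and sup-6 (chrII:12944968-12945052, - strand).
W05B2.8: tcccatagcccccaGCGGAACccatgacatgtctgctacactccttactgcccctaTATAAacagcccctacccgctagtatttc
R07E5.16: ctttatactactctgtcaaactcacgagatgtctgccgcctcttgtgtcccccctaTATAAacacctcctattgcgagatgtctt
F54D8.7: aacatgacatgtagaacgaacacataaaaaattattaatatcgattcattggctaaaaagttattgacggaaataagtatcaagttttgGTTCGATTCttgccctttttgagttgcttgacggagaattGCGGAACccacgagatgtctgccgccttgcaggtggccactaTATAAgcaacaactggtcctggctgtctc
sls-2.2: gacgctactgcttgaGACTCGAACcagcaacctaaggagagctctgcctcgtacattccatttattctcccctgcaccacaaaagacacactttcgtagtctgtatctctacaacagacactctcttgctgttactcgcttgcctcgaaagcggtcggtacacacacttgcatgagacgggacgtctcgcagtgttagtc
sls-2.1: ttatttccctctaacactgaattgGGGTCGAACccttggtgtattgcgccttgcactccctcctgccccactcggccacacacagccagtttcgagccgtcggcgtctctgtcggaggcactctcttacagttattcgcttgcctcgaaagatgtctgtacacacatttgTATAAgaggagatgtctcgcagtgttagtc
sup-6: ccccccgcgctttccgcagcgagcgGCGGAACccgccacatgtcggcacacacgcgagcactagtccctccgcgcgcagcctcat

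Of the 129 snRNA genes, 7 (5.43%, exact 95% interval over genes 2.21% to 10.9%) had a peak summit within 200 bp of the gene body in the list thresholded by irreproducible discovery rate (IDR). IDR ranks peaks by their agreement between replicates, and that list held 634 peaks. Of the 31527 nuclear genes without piRNA genes, 3% had one, so the ratio of the shares was 1.81. Of the 10813 such genes of at most 500 bp, the size class of all snRNA genes, 4.86% had one. The interval of the snRNA share held both backgrounds. All 7 summits were also within 200 bp of the annotated 5′ end. There, 2.06% of the nuclear genes without piRNA genes had one, and 4.57% of those of at most 500 bp.

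The tRNA genes, read by RNA polymerase III from internal promoters, had the highest share, with 32.8% of 612. The snoRNA genes, whose RNAs guide modification of ribosomal RNA, had 52 of 346 (15.0%). The intervals of both lay above that of the snRNA genes. The miRNA genes had 5 of 261 (1.92%), the genes of biotype ncRNA 250 of 7764 (3.22%) and the protein-coding genes 422 of 19973 (2.11%). The tRNA and snoRNA genes were part of the background, and without them 2.27% of 30569 genes had an IDR summit.

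**Figure D1:**
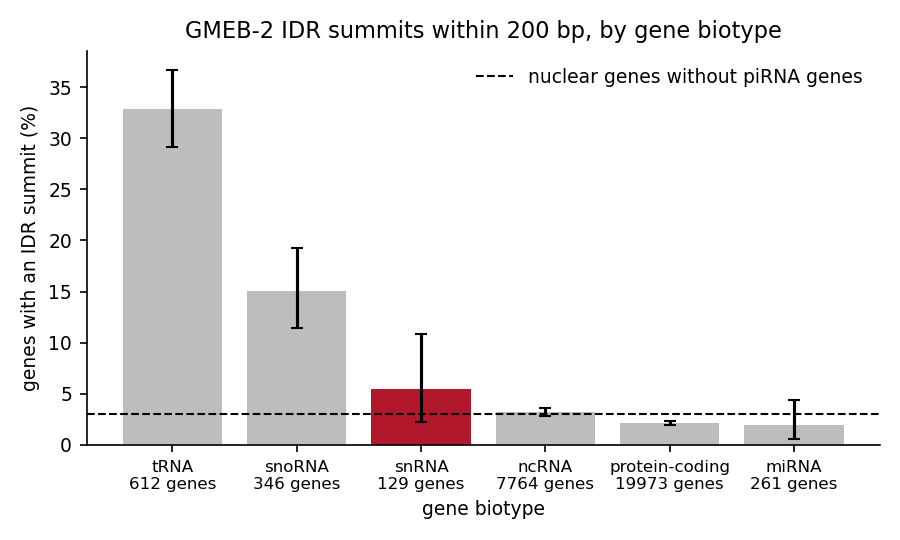
Share of genes with an IDR summit within 200 bp of the gene body (vertical axis, percent) for 6 gene biotypes, with exact 95% intervals over genes and the background share of 3% as a dashed line. The bar for snRNA genes stands at 5.43%, below those for tRNA and snoRNA genes, and its interval crosses the dashed line.

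The relaxed lists, which hold 30000 peaks each and reach far down into weak signal, gave another order. A summit of the list made from both replicates together, called the joint list here, lay within 200 bp of 33 snRNA genes (25.6%), against 44.4% of the nuclear genes without piRNA genes and 34% of those of at most 500 bp. In replicate 1 there were 38 genes (29.5%), against a background of 45.5%, and 31.8% for genes of at most 500 bp. In replicate 2 there were 34 (26.4%), against 45.5% and 33.1%. The snRNA share was thus above both backgrounds in the IDR list and below both in each of the 3 relaxed lists. In the IDR list it rests on 7 genes, and its interval held both backgrounds. No interval was computed for the relaxed lists, and all shares count the 12 SL1 genes, which had no summit. In all 4 lists the difference was smaller against genes of at most 500 bp. Both replicate lists held a summit at 22 genes, replicate 1 alone at 16 and replicate 2 alone at 12, and 77 genes had none in any list. Among the 634 strongest peaks of each replicate, 6 genes had a summit in both (4.65%). The background shares were 2.2%, and 3.82% for genes of at most 500 bp.

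Each peak carries a signal, the authors' own enrichment value against a control, which has a scale of its own in each list. In the joint list it ran from 26.2 to 1083 with a median of 36.01, and the IDR peaks were those from 91.8 upwards. The 7 snRNA genes ran from 111 to 307, ranks 446 to 66 of 30000. Below them was a gap, since the next gene stood at 75.0. Over the 33 genes with a joint summit the median signal was 55.3, against 91.8 at the 402 tRNA genes, 52.0 at the 139 snoRNA genes and 40.3 at the 10033 protein-coding genes with one. Thus few snRNA genes had a joint summit, and its median signal was above that of protein-coding genes and below that of tRNA genes.

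**Figure D2:**
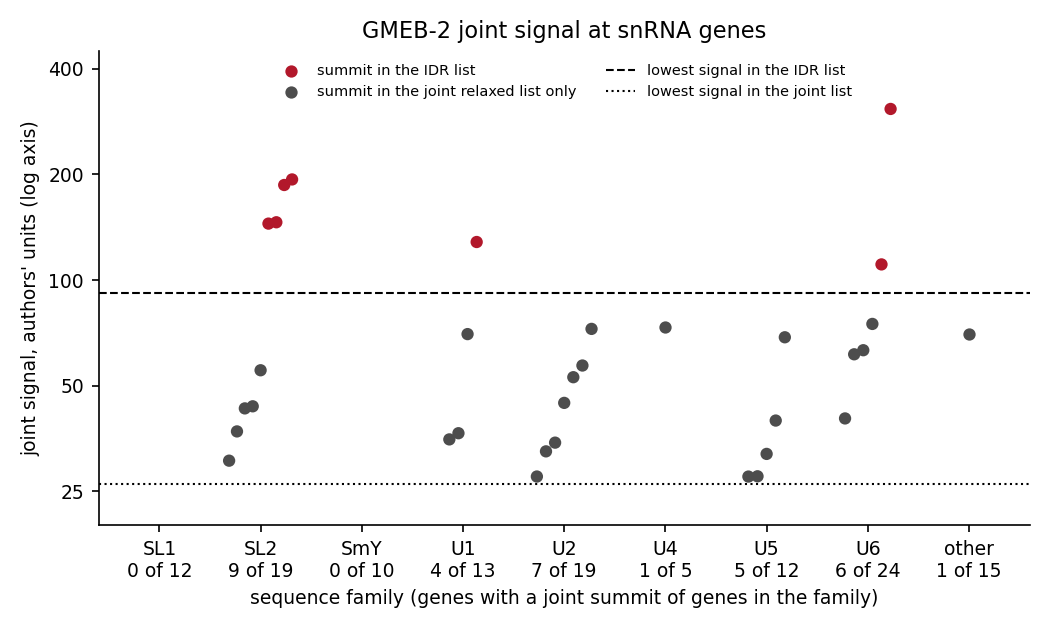
Joint signal (vertical axis, authors' units, log scale) of the snRNA genes with a joint summit, by sequence family, each point 1 gene, with the lowest IDR signal (91.8) and the lowest joint signal (26.2) as lines. The 7 red points, from 111 to 307, belong to the SL2, U1 and U6 families, and the SL1 and SmY columns are empty.

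SL2 genes were 4 of the 7 genes with an IDR summit, and 3 of 6 when peaks at tRNA and snoRNA genes were left out. Of the 19 genes of the SL2 family, 4 (21.1%, exact 95% interval 6.05% to 45.6%) had an IDR summit and 9 (47.4%) a joint summit, and 6 had none in any list. The shares of background genes of at most 500 bp were 4.86% and 34%. Without peaks at tRNA and snoRNA genes, 3 of the 19 had an IDR summit. The highest value was at sls-2.9 (chromosome I, 13297877 to 13297985), with signal 193 in the joint list, 86.5 in replicate 1 and 104 in replicate 2. Its ranks were 173, 132 and 220, so the replicates placed it alike. Its summit was 197 bp upstream of the 5′ end and inside both the tRNA gene M01E5.t1 and the ncRNA gene M01E5.8. The protein-coding gene top-1 was 122 bp away, so all 3 were nearer to the summit than sls-2.9.

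At sls-2.4 (chromosome I, 4172206 to 4172315) the signal was 187 in the joint list, 47.0 in replicate 1 and 140 in replicate 2. The ranks were 182, 465 and 124, so this gene stood higher in replicate 2. The joint summit lay 97 bp past the 5′ end, within the gene, and the summit of replicate 1 lay at 189 bp, beyond the 3′ end. The summit was also within 200 bp of the protein-coding gene R12E2.11 and the ncRNA gene R12E2.18, and 714 bp upstream of egg-5.

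At sls-2.2 the signal was 146 in the joint list, 45.0 in replicate 1 and 97.8 in replicate 2, with ranks of 273, 515 and 237. The summits of the 3 lists lay at 103, 97 and 114 bp from the 5′ end, at the 3′ end of the RNA. The IDR summit was also within 200 bp of the ncRNA gene C17C3.23. The nearest copy of sls-2.2 is sls-2.3, on the opposite strand and 3 edits away in the body, which had no joint summit and lay 463 bp from the summit at sls-2.2. This was the one snRNA gene with its nearest IDR summit over 200 and at most 500 bp away. It had a replicate 1 peak of signal 20.4 and rank 9863, and none in replicate 2.

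At sls-2.1 the signal was 145 in the joint list, 59.8 in replicate 1 and 86.4 in replicate 2. The ranks of 279, 272 and 294 lay within 22 places of each other. The summit lay 31 bp upstream of the 5′ end in the joint list, 45 bp upstream in replicate 1 and 32 bp inside the gene in replicate 2. The bodies of sls-2.4, sls-2.2 and sls-2.1 are 4 to 10 edits apart, while sls-2.9 is 26 to 28 edits from each of them.

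In the U6 family, 2 of 24 genes had an IDR summit, and these were the strongest and the weakest of the 7. W05B2.8, in an intron of dhc-4, had signal 307 in the joint list, 130 in replicate 1 and 180 in replicate 2. Its ranks of 66, 55 and 68 made it the highest snRNA gene in every list. The joint summit lay 120 bp past the 5′ end, which is 19 bp beyond the 3′ end of the RNA, and the summits of the replicates lay at 112 and 151 bp. The body of W05B2.8 is identical to those of 13 other genes. Of these 13, 2 had a joint summit, the higher of them R07E5.16 with signal 75.0, and 9 had no summit in any list. The flanks differed in how far their 36-base stretches are unique, which was not a measure of read placement. At W05B2.8 every 36-base stretch of both flanks was found at a single place in the genome. At the 9 genes without a summit this held for 6.67% to 100% of the upstream stretches, with a median of 41.8%, and at none of them for both flanks in full. The part of this in the missing peaks was not tested. Both flanks were fully unique at Y17G9A.90 and Y9C9A.111, which share the body and had a replicate 1 peak but no joint summit.

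F54D8.7 had the lowest signal of the 7, with 111 in the joint list, 35.0 in replicate 1 and 74.7 in replicate 2. The ranks were 446, 1146 and 383, so it was among the 634 strongest peaks of replicate 2 but not of replicate 1. Its summits lay 29, 20 and 25 bp upstream of the 5′ end, at or next to the TATAA word marked in the window above. It shares its body with T08B6.62 and 1 more gene, both with a joint summit and the higher at 61.4. The summit lay 797 bp upstream of cox-6A, a gene for a cytochrome c oxidase subunit.

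In the U1 family, 1 of 13 genes had an IDR summit. This was sup-6, known in genetics as a suppressor and 1 of the U1 genes in which such mutations were found. It lies in an intron of F58G1.7. Its signal was 128 in the joint list, 60.5 in replicate 1 and 68.6 in replicate 2, with ranks of 348, 268 and 456. The summits lay 5 bp upstream, 20 bp upstream and 6 bp inside the gene. The IDR summit was also within 200 bp of the ncRNA genes F58G1.11 and F58G1.12. The second suppressor gene of this kind, sup-39, had signal 70.1 in the joint list, 38.4 in replicate 1 and 28.5 in replicate 2, with a replicate 2 rank of 9295. That peak also lay within 200 bp of mir-1831, so 1 peak counted for both genes.

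**Figure D3:**
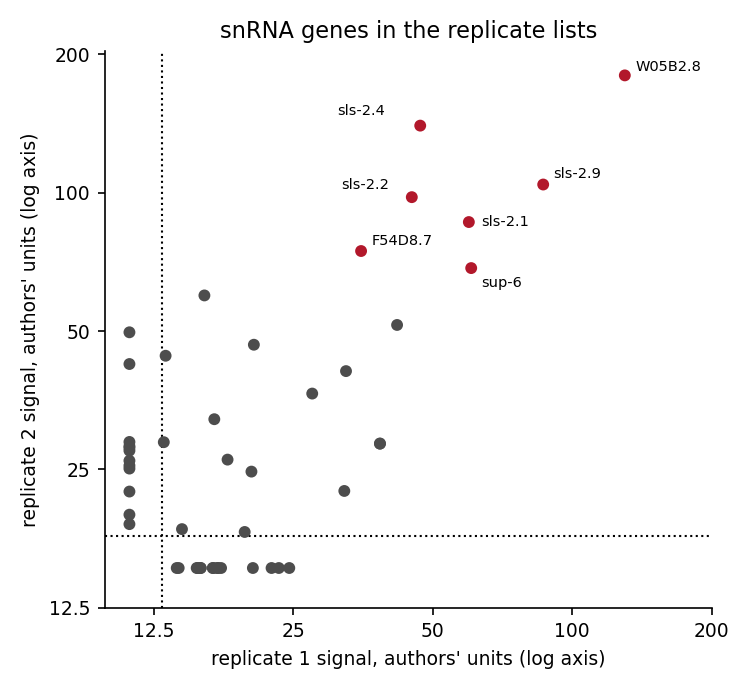
Signal in replicate 1 (horizontal axis) against replicate 2 (vertical axis), authors' units on log scales, for the 50 snRNA genes with a summit in at least 1 replicate list. Red points are the 7 genes with an IDR summit, and points left of or below a dotted line had no peak in that replicate and are drawn at an arbitrary level.

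The replicates were then compared at single genes. Of the 7 genes with an IDR summit, 4 ranked better in replicate 1 and 3 in replicate 2. The distance between the summits of the replicates ran from 5 to 77 bp with a median of 26 bp. Below them the ranks of some genes lay far apart. C52E4.8 of the U4 family had a joint signal of 73.3, with 16.1 and rank 19359 in replicate 1 and 59.8 and rank 605 in replicate 2. The summits of the replicates lay at -141 bp and -35 bp from its 5′ end, so they may belong to different peaks. C52E4.8 was the one gene outside the 7 whose replicate 2 peak was among the 634 strongest. Ranks were also far apart at F08G2.11 of the U2 family, with a joint signal of 72.6, rank 9707 in replicate 1 and rank 1309 in replicate 2. By contrast R07E5.16 had ranks of 634 and 919, with signal 41.9 in replicate 1 and 51.6 in replicate 2. Replicate 2 was run on 2 sequencer models by its labels, and the part of that or of depth in these differences was not tested.

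The 26 genes with a joint summit but no IDR summit ran from 27.5 to 75.0, with a median of 43.4 and a median rank of 8473. The U2 family had 7 of 19 genes in the joint list, all below the IDR range, with signal from 27.5 to 72.6. The U5 family had 5 of 12, from 27.5 to 68.7, the highest F38E11.10. The U4 family had 1 of 5, and the other genes 1 of 15. The shares of the U2 and U5 families, 36.8% and 41.7%, were thus near the 34% of short background genes, with no value in the IDR list.

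None of the 12 SL1 genes and none of the 10 SmY genes had a summit in any list. In the IDR and joint lists the exact intervals were 0% to 26.46% for SL1 and 0% to 30.85% for SmY. Both held the 4.86% of short background genes with an IDR summit and lay below the 34% with a joint summit. The intervals treat genes as independent, but some are near neighbours, such as smy-8 and smy-10 on chromosome IV. They may thus be too narrow, and absence of binding was not tested. The SL1 genes lie on chromosome V in the repeats that also hold the 5S ribosomal RNA genes, and their 12 bodies are of 2 sequences. Over the body and 200 bp on each side, the share of 36-base stretches found at a single place in the genome was 0% to 22.5%, with a median of 0%. The SmY genes had 93.0% to 100% such stretches. How reads with several matches were treated is not given in the sources used here, so for SL1 an absent peak and an absent placement of reads cannot be told apart. For the SmY genes nearly all such stretches were thus unique. The length of 36 bases was a choice made here and was not taken from the reads, so placement of reads was not measured.

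**Figure D4:**
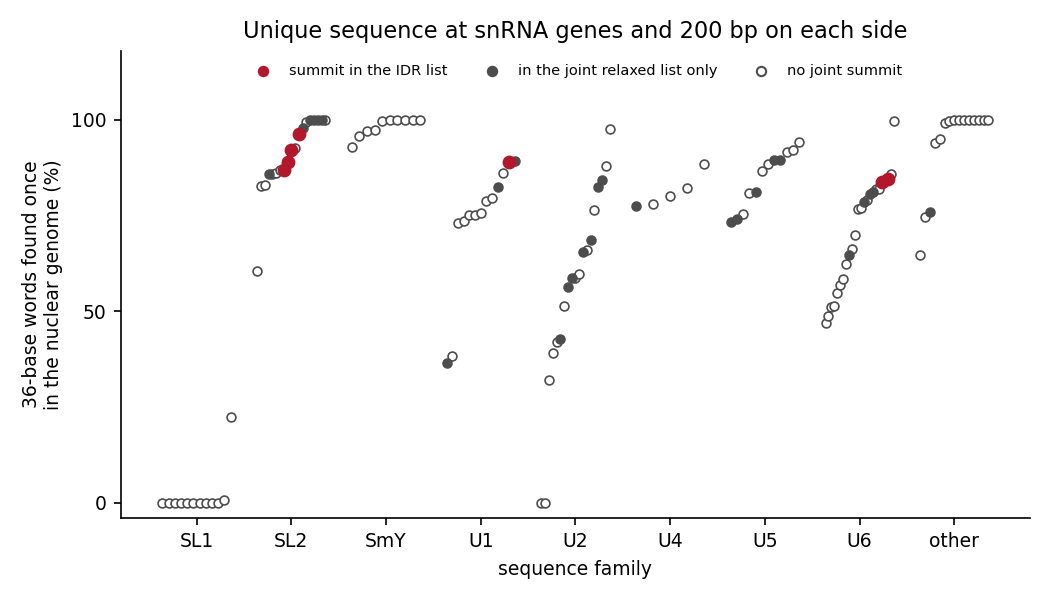
Percent of 36-base stretches found at a single place in the genome, over each gene and 200 bp on each side (vertical axis), by sequence family, each point 1 gene. The 7 red points of IDR genes lie from 83.7% to 96.2%, all SL1 points at 22.5% or lower and all SmY points at 93.0% or higher.

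Across all snRNA genes, 22 had under 50% unique stretches, and 2 of these had a joint summit. Of the 70 genes with 50% to under 90%, 25 had a joint summit and 5 an IDR summit. Of the 37 genes with at least 90%, 6 had a joint summit and 2 an IDR summit. The most unique genes thus did not have summits most often, but the groups differ in family. The 37 include the 10 SmY genes, none with a joint summit, and most of the 15 genes outside the families. Those 15 had a median of 99.8% unique stretches, and 1 had a joint summit. The part of family in this order was not tested. At W05B2.8 and F54D8.7 no stretch of the body was unique, but every stretch of the flanks was, and their summits lay in the flanks.

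**Figure D5:**
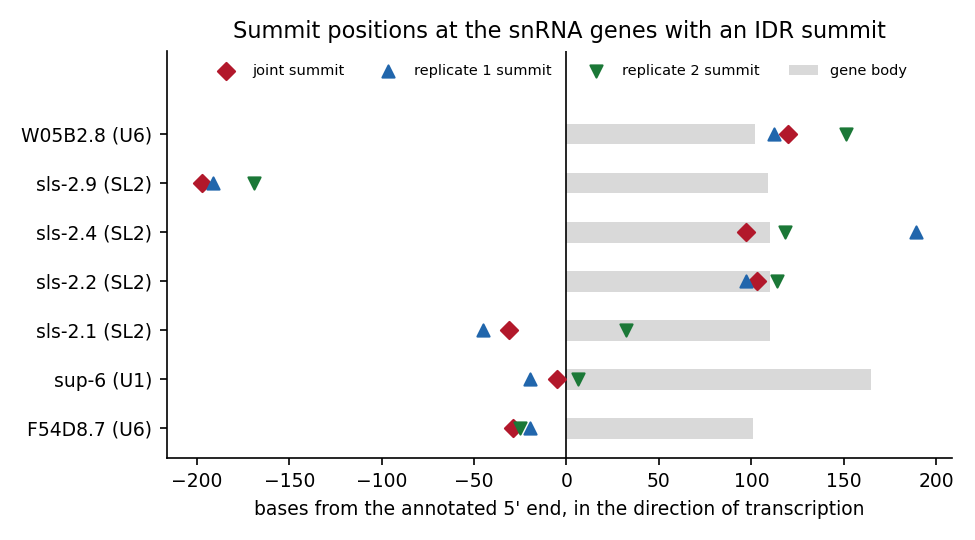
Distance of summits from the annotated 5′ end (horizontal axis, bases, in the direction of transcription) at the 7 snRNA genes with an IDR summit, with the gene bodies in grey. Summits lie near the 5′ end at sls-2.1, sup-6 and F54D8.7, near or past the 3′ end at W05B2.8, sls-2.4 and sls-2.2, and far upstream at sls-2.9.

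No common place was seen among the 7 IDR summits, whose positions differed by 5 to 77 bp between the replicates. The summit at sls-2.9 lay inside a tRNA gene. Over the 7 genes the median offset from the 5′ end was -5 bp, with a range of -197 to 120 bp, so 3 summits lay within 31 bp of the 5′ end and 3 at 97 to 120 bp. Over the 33 genes with a joint summit, 18 summits lay upstream, 9 inside and 6 downstream of the gene. The interval between the quartiles was -51 to 97 bp. With only 7 genes the median turned positive under other settings.

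By place in the genome, 55 snRNA genes lay in introns of protein-coding genes, 12 overlapped an exon and 62 lay outside. An IDR summit was found at 2 of the 55, 0 of the 12 and 5 of the 62. Among other noncoding genes of at most 500 bp, without piRNA genes, the shares in the same places were 6.42%, 2.47% and 5.23%. A joint summit was at 18, 0 and 15 snRNA genes, against shares of 38.6%, 26.4% and 35.6%. By chromosome, the IDR genes were on I (2 of 16), II (3 of 16) and III (2 of 13), where 6.26%, 4.68% and 7.68% of those noncoding genes had one. Chromosomes IV and V held 41 and 40 snRNA genes, with no IDR summit and with 8 and 3 joint summits. The shares of the noncoding genes there were 4.93% and 3.36% for IDR summits, which amount to few genes at these numbers, and 32.4% and 30.5% for joint summits. The SL1 genes account for 12 of those on chromosome V.

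Upstream words were searched in the 200 bp before each gene. The B box word GTTCGANNC, from the internal promoter of tRNA genes where TFIIIC binds, was searched on both strands. It was present at 6 of the 129 snRNA genes (4.65%), against 1.37% of 31392 other nuclear genes without piRNA genes. Of the 7 genes with an IDR summit 5 had it, and of the other 122 genes 1 had it, Y47H9A.2 of the U2 family, which had no peak in the joint list. In the SL2 family the word was in this window at 4 genes and these were the 4 with an IDR summit, while the other 15 had neither. Of the 4, sls-2.4, sls-2.2 and sls-2.1 have similar bodies. Outside this window the word also lay inside sls-2.16, an SL2 gene without an IDR summit. Within 400 bp of the body it was also near H27M09.6, ZK897.3, K09B11.12, smy-11 and smy-12, none with an IDR summit.

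At the SL2 genes with an IDR summit the word was on the strand opposite to the gene. Its first base was 184 bp upstream at sls-2.9, 161 bp at sls-2.4, 177 bp at sls-2.2 and 168 bp at sls-2.1. At sls-2.9 it lay inside the tRNA gene and M01E5.8 and was 9 bp from the summit. At the other 3 no annotated gene lay over it, and the summit was 262, 284 and 141 bp away. The word was outside the joint peak at sls-2.4 and sls-2.2, but inside it at sls-2.1. At F54D8.7 the word was on the gene's own strand at 111 bp upstream, 78 bp from the summit. W05B2.8 and sup-6 had none.

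The same word was read at the rest of the background, leaving out tRNA, snoRNA and piRNA genes. Where it lay over a tRNA or snoRNA gene, 11 of 27 genes (40.7%) had an IDR summit. Where it lay elsewhere, 12 of 346 (3.47%) had one, and among genes without the word 663 of 30061 (2.21%). Among genes of at most 500 bp the last 2 shares were 1.80% and 2.66%. The word away from tRNA and snoRNA genes was thus rarely accompanied by an IDR summit in the genome at large. The word was looked at in the snRNA genes with earlier results on it known.

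TATAA on the gene's own strand was at 35 snRNA genes (27.1%), against 30.7% of the background. Its position set the U6 family apart, as 16 of its 24 genes had it at 40 to 20 bp upstream. There it was at 1 of 19 SL2 genes, 2 of the 15 genes outside the families and none in the SL1, SmY, U1, U2, U4 and U5 families. The background share at that position was not counted. The most frequent words of 7 bases upstream were AACCCGC, at 34 genes (26.4%) against 0.468% of the background, and GCGGAAC, at 32 (24.8%) against 0.516%, both on the own strand. They overlap in part, and are shared by families of unlike RNA. GCGGAAC was at 10 of 13 U1 genes, in 9 of them with its first base at -60 bp. Of the 7 IDR genes 3 had GCGGAAC, namely W05B2.8, sup-6 and F54D8.7, and of the 122 others 29.

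The word ACGCGC was at 35 snRNA genes on the own strand (27.1%, against 2.05%), of which 17 were in the U2 and 10 in the SL1 family. It was at 1 of the 7 IDR genes. TACGTA, which holds the core of the sites bound by the vertebrate relatives, was at 7 snRNA genes (5.43%, against 2.02%), 5 of them SmY genes, and at none of the 7 IDR genes. Within 100 bp of the 7 summits neither ACGCGC nor TACGTA occurred on either strand, while 17.98% and 1.104% of the 634 IDR peaks had them there. TATAA was within 100 bp of the summits at sls-2.1 and F54D8.7, against 25.4% of the 634 IDR peaks. The B box word was that near at sls-2.9 and F54D8.7, against 25.2% of the IDR peaks. Neither word was thus clearly more frequent at the 7 summits. The GC content of these windows ran from 37.3% at sls-2.2 to 62.7% at sup-6, with a mean of 45.6% over the IDR peaks.

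Genes for the proteins of the same pathway were read by a summit from 1000 bp upstream to 500 bp downstream of the 5′ end, where 2.22% of protein-coding genes had an IDR summit. Of 54 genes listed, 48 were found in the annotation and 4 had one. The snRNA activating complex had 0 of 7, the proteins of individual particles 0 of 14 and the assembly factors smn-1, smi-1 and tgs-1 0 of 3. Of the 7 Sm core genes, whose proteins form a ring on most snRNAs, snr-1 had a signal of 242 with its summit 426 bp upstream. Of the 7 Lsm genes, most of whose proteins form the like ring on U6, lsm-3 had 133 at 963 bp upstream. Of 10 genes of the Integrator, the complex that cuts the 3′ ends of snRNAs, ints-4 had 95.9 and ints-8 95.6, both near the lower end of the IDR list. The joint peak at C52E4.8 was also in the window of snr-4, so an snRNA gene and an Sm gene shared it.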

How the data were processed

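ChIP-seq peak lists on build ce11 were used: 1 for each of the 2 replicates, 1 for both together and the IDR list. Column 7 is the signal of each peak, the authors' deposited enrichment value against a control alignment, per the labels and the listing deposited with them. Signal was used only within a list. The aligner, peak caller, IDR threshold and treatment of reads with several matches were not given in the sources used here. The lists hold no read counts, so depth is unknown. No column belonged to another series.

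Genes came from Ensembl release 115 (WBcel235, the assembly of ce11). As copies share Ensembl names, symbols were taken from RefSeq by gene ID, which matched 129 of 129. A gene's value was the highest signal among summits within 200 bp of its body. Families were joined where bodies differed by at most 25% in edit distance (edlib 1.3.9.post1). Intervals are exact 95% binomial intervals over genes (scipy 1.17.1), cover counting only, and treat genes as independent, although neighbours can share a peak. Tables were handled with pandas 2.3.3 and numpy 2.4.6 in Python 3.11.15. The search for summits was checked on planted summits.

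The text names each snRNA gene with an IDR summit, the highest gene of each named class, the next 5 by joint signal, and genes with the nearest IDR summit over 200 and at most 500 bp away. Other genes named were chosen after their values were seen. The members, lists and words were chosen with earlier results of these data known. Lists on build ce10 were not used. The body sequences of the U5 and U6 families are not reported here.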

Additional observations from a re-analysis of the deposited data

How the results depend on the processing

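Of 20 alternative settings, 16 left the value close to the one reported, meaning within 1.5 times for a count and within its interval or spread otherwise. For the ratio of shares that interval was 0.736 to 3.62. It rests on 7 genes and holds 1, so a ratio without any excess would also have counted as close. The number of snRNA genes with an IDR summit was 7 and ran from 5 to 8 over the other distances, the 5′ end, peak overlap, the stronger part of the list, the list without peaks at tRNA and snoRNA genes, and either replicate alone (7 and 8). The number with a summit among the strongest peaks of both replicates was 6, and 3 when as many peaks of each replicate were taken as the stronger part of the IDR list holds. The ratio of the snRNA share to the background share was 1.81, with a range of 1.12 against genes of at most 500 bp to 2.68 with piRNA genes kept, and 2.39 without tRNA and snoRNA genes, a background chosen after the data were seen. The median offset of -5 bp became 46 bp at distances of 100 and 500 bp, where 1 gene is lost or gained, and was 32 bp without replicate 1 and -20 bp without replicate 2. No paired analysis was possible because there was 1 group and no test. The unknown depth and the treatment of reads with several matches limit what a missing peak means.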
